A study of Mus musculus with 96 samples.

Results

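The chromosome 6 flank of Ogg1 was taken as every ChIP-seq peak that starts within 15 Mb of the Ogg1 gene on either side, in all 6 peak tables of the series. It held 252 of the 22815 peaks. They were 160 H3K4me3 and 19 H3K27me3 peaks of NeuN+ nuclei, 36 H3K4me3 and 32 H3K27me3 peaks of NeuN- nuclei, and 3 and 2 Suz12 peaks of NeuN+ and NeuN- nuclei. Ogg1 itself lies on the plus strand at chr6:113326972-113335068 (mm10, GENCODE annotation). The 252 peaks carried 161 gene symbols and fell on 207 separate sites, of which 169 were a peak in 1 table only, so members of different tables at the same place are not independent items.

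Hippocampal nuclei of 6 months old male mice were sorted on the neuronal nuclear antigen NeuN, and each sort pooled 5 animals of the same genotype. The 4 genotypes, all on a C57BL/6N background, were WT (unmodified), Ogg1-/-, Mutyh-/- and a double knockout (DKO) bred by crossing both single knockouts. Ogg1-/- and DKO libraries are homozygous for the targeted Ogg1 allele and are called carriers here, while WT and Mutyh-/- libraries keep both normal Ogg1 copies and are called non-carriers. Each table held 3 libraries per genotype, and the values are read counts per peak that the authors had scaled between libraries, called normalised read counts below.

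Ogg1 is the DNA glycosylase that removes 8-oxoguanine from DNA, and Mutyh removes the adenine that replication places opposite it. H3K4me3 marks the promoters of active genes, whereas H3K27me3 is the silencing mark written by Polycomb repressive complex 2 (PRC2), of which Suz12 is a core subunit. A targeted allele is inherited together with the stretch of chromosome around it, and such a stretch can differ in sequence from the control strain if the allele was made in cells of another strain. The comparison by distance from Ogg1 asks whether carriers differ from non-carriers more often there than elsewhere. The reads themselves were not analysed here, so strain sequence was not measured, and a peak count shows only how many reads fell on the site.

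Sequences of the sites on which the results below turn are given from the mouse reference GRCm38 (the build called mm10), plus strand, with every CG dinucleotide in capitals, since CG-rich DNA is typical of H3K4me3 promoters. The stretches leave out annotated exons. They are the part of the Ogg1 promoter peak upstream of the gene (chr6:113326823-113326971), the 2 H3K4me3 peaks with the smallest p-values for the Ogg1 allele at Usp18 (chr6:121245647-121245905) and Foxj2 (chr6:122826343-122826642), the H3K27me3 peak with the smallest p-value near 1700049E22Rik (chr6:100526009-100526308), and the site in a Chl1 intron that was a peak in all 6 tables (chr6:103649059-103649358).
Ogg1: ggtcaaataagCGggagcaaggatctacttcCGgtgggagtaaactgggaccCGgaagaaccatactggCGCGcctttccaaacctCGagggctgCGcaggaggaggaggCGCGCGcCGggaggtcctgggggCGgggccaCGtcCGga
Usp18: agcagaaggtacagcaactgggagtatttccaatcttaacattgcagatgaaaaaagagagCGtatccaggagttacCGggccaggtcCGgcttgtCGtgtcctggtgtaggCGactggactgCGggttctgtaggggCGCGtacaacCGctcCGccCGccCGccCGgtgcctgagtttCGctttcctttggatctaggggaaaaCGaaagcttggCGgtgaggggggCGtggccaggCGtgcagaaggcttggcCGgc
Foxj2: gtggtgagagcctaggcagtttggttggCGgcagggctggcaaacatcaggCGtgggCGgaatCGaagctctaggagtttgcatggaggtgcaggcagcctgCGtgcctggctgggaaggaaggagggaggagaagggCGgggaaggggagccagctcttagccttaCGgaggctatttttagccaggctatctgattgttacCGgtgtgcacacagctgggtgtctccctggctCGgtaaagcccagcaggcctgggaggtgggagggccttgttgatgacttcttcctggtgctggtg
1700049E22Rik: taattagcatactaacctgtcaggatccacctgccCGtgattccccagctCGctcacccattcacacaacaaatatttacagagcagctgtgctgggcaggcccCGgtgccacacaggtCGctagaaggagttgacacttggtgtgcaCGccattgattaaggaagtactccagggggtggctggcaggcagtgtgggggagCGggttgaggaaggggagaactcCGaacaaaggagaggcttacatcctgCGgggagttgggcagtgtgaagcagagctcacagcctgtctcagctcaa
Chl1: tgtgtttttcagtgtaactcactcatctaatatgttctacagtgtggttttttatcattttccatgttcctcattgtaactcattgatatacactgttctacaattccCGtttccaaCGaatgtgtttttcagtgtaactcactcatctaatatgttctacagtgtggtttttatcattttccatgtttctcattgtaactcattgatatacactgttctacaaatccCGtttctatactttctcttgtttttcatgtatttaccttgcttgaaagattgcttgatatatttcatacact
The Ogg1 stretch held 14 CG in 149 bases, Usp18 19 in 259, Foxj2 9 in 300, 1700049E22Rik 8 in 300 and Chl1 3 in 300. All 160 H3K4me3 members of NeuN+ nuclei held a CG in their window, as did 99.9% of all peaks of that table, and the median number was 33 for members against 35 for all. The Chl1 stretch was the AT-rich one, with 32.0% G and C against 59.5% to 65.8% at Usp18, Foxj2 and Ogg1. It repeats itself, since a run of 52 bases occurs in it a second time 121 bases further on, and its central 31 bases have 6 exact copies in the genome, 2 of them on chromosome 6. The central 31 bases of the other 4 stretches occur once.

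Depth differed between tables. Reads in peaks per library ran from 96023 to 548706 for H3K4me3 in NeuN+ nuclei and from 39320 to 120004 in NeuN- nuclei, from 23794 to 52344 (NeuN+) and from 19132 to 78250 (NeuN-) with H3K27me3, and from 6652 to 33035 (NeuN+) and from 11887 to 66148 (NeuN-) with Suz12. The lowest H3K4me3 NeuN+ library was DKO replicate 1. Peaks that were at least 50% repeat sequence took 0.121% to 4.73% of the reads in the H3K4me3 NeuN+ libraries and 67.6% to 85.7% in the Suz12 NeuN- libraries, although only 3 of the 252 members were such peaks. Of 5 neuronal marker genes (Rbfox3, Camk2a, Grin1, Snap25 and Syt1), all 5 had an H3K4me3 peak in NeuN+ nuclei and 0 in NeuN- nuclei. Of 11 glial and microglial marker genes, Olig1 alone had one in NeuN- nuclei and Mbp alone in NeuN+ nuclei, so the non-neuronal label rests here mainly on the absence of neuronal markers.

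The H3K4me3 peak at the Ogg1 promoter was also found in mice with the targeted allele. In NeuN+ nuclei (chr6:113326823-113327223) the normalised read counts were 15.4, 5.85 and 10.8 in WT, 10.9, 13.8 and 14.9 in Mutyh-/-, 17.9, 6.15 and 13.8 in Ogg1-/- and 0, 14.5 and 5.31 in DKO. Carriers and non-carriers overlapped, and the only library at 0 was DKO replicate 1, the shallowest of the table. The fold change of carriers over non-carriers was -0.71 on the log2(value + 1) scale used throughout (95% interval -1.87 to 0.46, 6 against 6 libraries). Which exons the targeted allele lacks is not given in the sources used here, so this peak does not check the genotype labels. Ogg1 had a peak in no other table.

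Around Ogg1, 19 H3K4me3 promoter peaks of NeuN+ nuclei lay within 0.5 Mb, from Srgap3 to Sec13, which encodes a coat and nuclear pore protein. For the Ogg1 allele 10 of them were higher and 9 lower, their median log2 fold change was 0.03, and the range ran from -0.71 at Ogg1 to 0.52 at Rpusd3. A peak is called a differentially enriched region (DER) below where its p in limma, before adjustment, is under 0.05 and it differs by more than 0.5 on the log2 scale in either direction. Of the 19, 0 were called, and 0.831% of all peaks of the table were. Brpf1, a chromatin reader of an acetyltransferase complex whose promoter lies 19.5 kb before Ogg1, gave -0.06 (95% interval -0.61 to 0.49), and Vhl, the substrate receptor of the ubiquitin ligase that degrades hypoxia-inducible factors, gave 0.26 (95% interval -0.37 to 0.89). The Gt(ROSA)26Sor promoter, at the Rosa26 locus that is widely used for transgene insertion, gave 0.10.

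**Figure D1:**
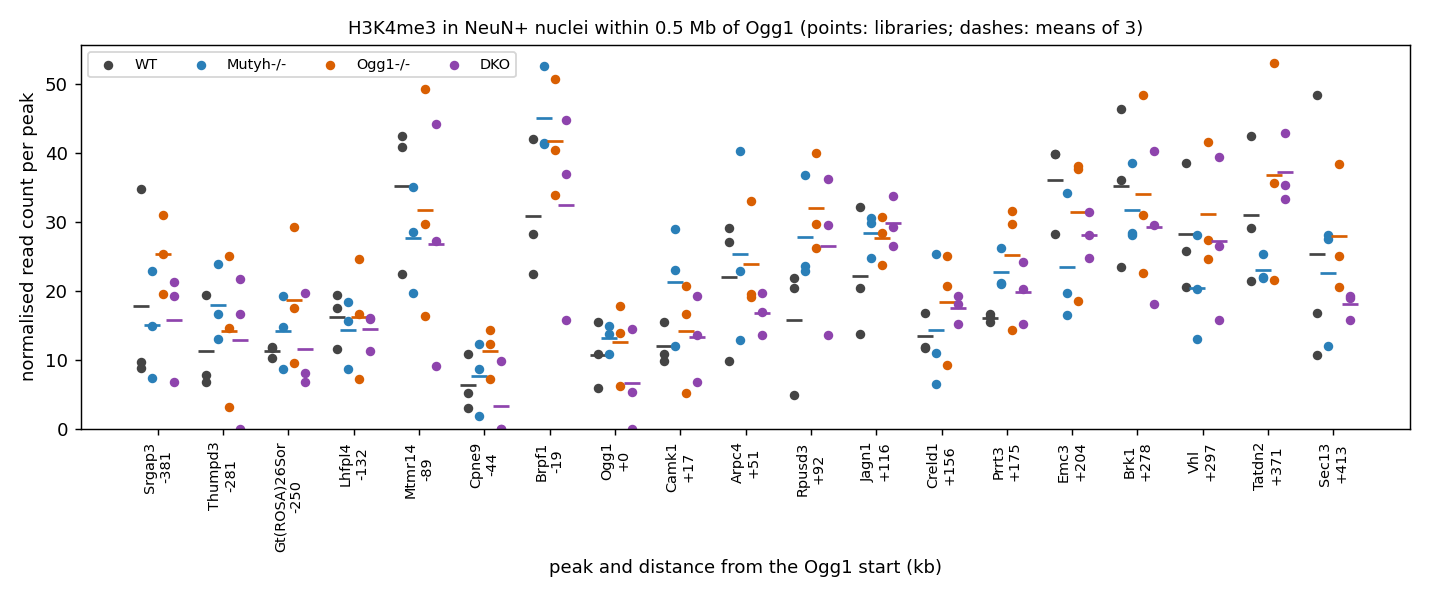
H3K4me3 normalised read counts (y axis) in NeuN+ nuclei for the 19 peaks within 0.5 Mb of Ogg1, ordered by distance from its start in kb (x axis), with 1 point per library, colours for the 4 genotypes and dashes for the means of 3. At Ogg1 the points of the 4 genotypes overlap between 0 and 17.9.

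Rpusd3, which encodes a mitochondrial RNA pseudouridine synthase and lies 92.1 kb after the Ogg1 start, was the nearest peak called against WT. Its H3K4me3 counts in NeuN+ nuclei were 21.9, 4.88 and 20.5 in WT, 22.9, 36.8 and 23.7 in Mutyh-/-, 26.2, 29.7 and 40.0 in Ogg1-/- and 13.5, 36.2 and 29.6 in DKO. WT lay below both single knockouts in every library, with its replicate 2 far below the other two. Ogg1-/- exceeded WT by 1.19 (SE 0.48, 95% interval 0.22 to 2.16) and Mutyh-/-, which has the normal Ogg1 locus, exceeded WT by 0.98 (95% interval 0.01 to 1.95), while DKO differed from Mutyh-/- by -0.14 (95% interval -1.11 to 0.82). Without WT replicate 2 the differences from WT were 0.55 and 0.34 and both calls were lost. The Ogg1-/- call was also lost without Ogg1-/- replicate 3 (1.02). That of Mutyh-/- was lost under 10 of the 22 alternatives, among them leaving out any 1 of the Mutyh-/- libraries (0.77 to 1.10) or of the Ogg1-/- libraries (0.98).

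In NeuN- nuclei 6 H3K4me3 peaks lay within 0.5 Mb, and 1 was called for the Ogg1 allele, the Brpf1 promoter (chr6:113307249-113307649). Of all H3K4me3 peaks of NeuN- nuclei 1.87% were called, and 6 peaks are too few to give a share to set beside it. The Brpf1 counts were 22.1, 21.3 and 16.5 in WT, 20.0, 16.4 and 9.75 in Mutyh-/-, 21.8, 7.98 and 2.84 in Ogg1-/- and 13.9, 5.00 and 10.1 in DKO. The difference was -0.92 (SE 0.43, 95% interval -1.77 to -0.07, adjusted p = 0.999 in limma), with 1 Ogg1-/- library at the WT level and the ranges overlapping. The call was lost without WT replicate 1 (-0.88) or 2 (-0.89), Mutyh-/- replicate 1 (-0.82) or 2 (-0.88), Ogg1-/- replicate 3 (-0.60) or DKO replicate 2 (-0.74), without robust moderation (-0.92) and in edgeR with the authors' scaling (-0.77). Emc3, which encodes a subunit of the endoplasmic reticulum membrane protein complex, differed for the Mutyh allele instead, by 1.77 (SE 0.66, 95% interval 0.47 to 3.08). Its counts were 8.30, 2.36 and 3.55 in WT, 20.0, 12.1 and 9.75 in Mutyh-/-, 20.8, 1.60 and 0 in Ogg1-/- and 15.8, 13.6 and 16.8 in DKO.

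Pooled over the 6 tables, the median absolute difference for the Ogg1 allele was no larger near Ogg1 than further away. Differences relative to their standard errors, single tables and single comparisons gave other orders. The median absolute log2 fold change, after the median of each table was subtracted, was 0.199 over the 31 members under 1 Mb from Ogg1, 0.240 over the 53 at 1 to 5 Mb, 0.256 over the 76 at 5 to 10 Mb and 0.252 over the 92 at 10 to 15 Mb. The rest of chromosome 6 (832 peaks) gave 0.247 and the other chromosomes (21731 peaks) 0.249. These are descriptions without a test, and the bins hold the tables in different shares. Divided by their standard errors, with no median subtracted, the absolute fold changes had medians of 0.611, 0.626, 0.532 and 0.595 from the innermost bin outwards. On this measure the rest of chromosome 6 gave 0.551 and the other chromosomes 0.567. The signed medians of the 4 bins lay between -0.03 and 0.03. Calls against WT were most frequent at 1 to 5 Mb. There 5 of 53 were called in Ogg1-/- (9.43%, other chromosomes 2.25%) and 5 in DKO (9.43%, other chromosomes 1.86%). Mutyh-/-, a non-carrier compared with the same WT libraries, had 4 (7.55%, other chromosomes 1.94%). The Ogg1 allele gave 2 (3.77%, other chromosomes 1.80%) and DKO against Mutyh-/- 0. Under 1 Mb, 1 of 31 was called in Ogg1-/-, 0 in DKO and 1 in Mutyh-/- against WT.

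Over the 24 H3K4me3 peaks of NeuN+ nuclei under 1 Mb the median absolute difference was 0.183, followed by 0.163, 0.208 and 0.157 in the outer bins and 0.182 on other chromosomes, and 0 of the 24 were called. H3K4me3 in NeuN- nuclei gave 0.390 over 6 peaks under 1 Mb, then 0.616, 0.405 and 0.274, with 0.349 on other chromosomes, so no bin was the largest in both fractions. In Ogg1-/- against WT the 24 innermost H3K4me3 peaks of NeuN+ nuclei had a signed median of 0.22 relative to their table, while the outer bins lay between -0.0039 and 0.0097. Mutyh-/- against WT, which uses the same WT libraries, gave 0.21 for these 24, and DKO against Mutyh-/- gave -0.23. In NeuN- nuclei the 6 innermost peaks gave -0.72 in Ogg1-/- against WT and 0.29 in DKO against Mutyh-/-. On the centromeric side of Ogg1, which held 64 members, the median over all tables was 0.308, and on the telomeric side, with 188 members, it was 0.219. The centromeric members include 18 of the 32 H3K27me3 peaks of NeuN- nuclei, which have lower counts than H3K4me3 peaks, and within H3K4me3 of NeuN+ nuclei the medians were 0.281 over 34 peaks and 0.166 over 126. In that table the Mutyh allele gave 0.180 and 0.213 on the same sides. For the Mutyh allele, whose gene is on another chromosome, the bins gave 0.186, 0.274, 0.280 and 0.291.

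**Figure D2:**
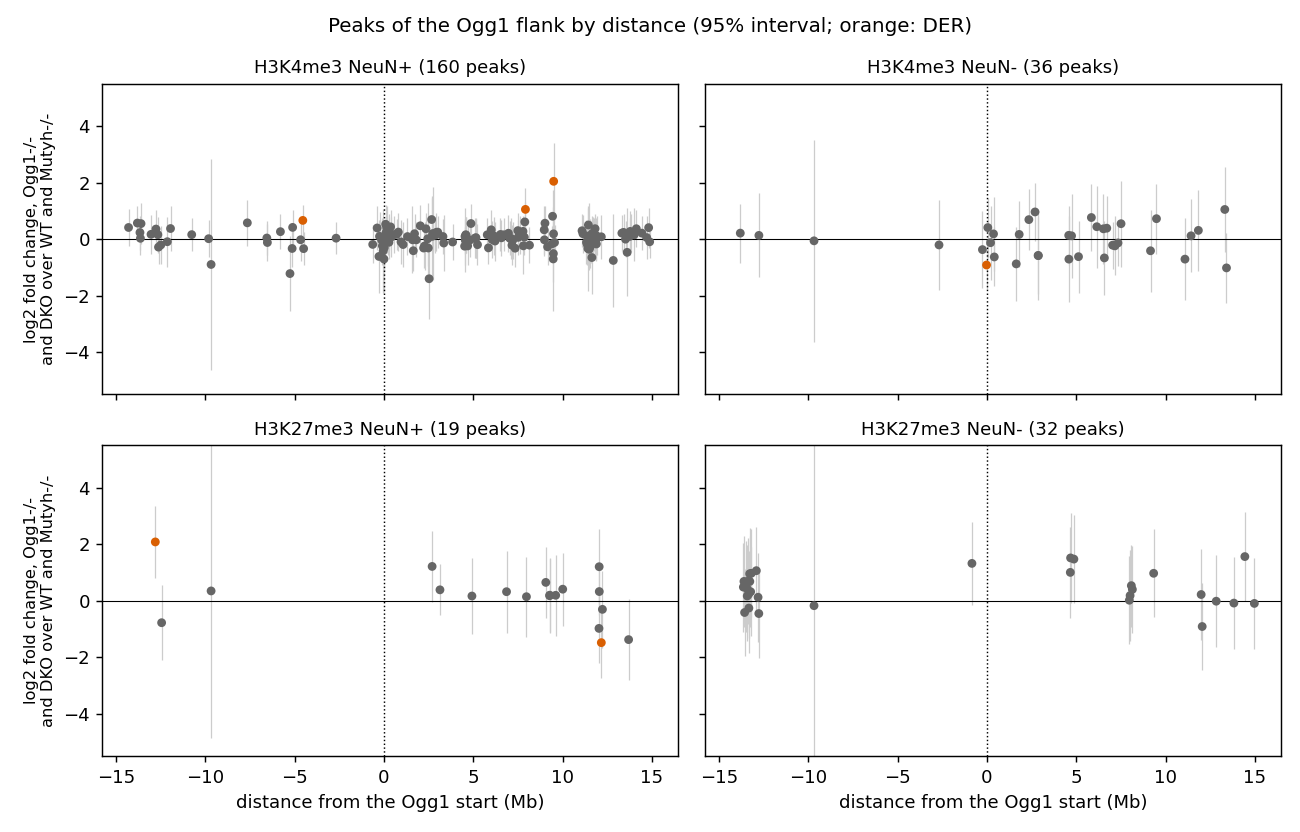
Log2 fold change of carriers over non-carriers (y axis) for flank peaks by distance from the Ogg1 start in Mb (x axis, dotted line at Ogg1), with 95% intervals and DERs in orange; the 5 Suz12 peaks are not drawn, and the interval of the Chl1 site runs past the axis in both H3K27me3 panels. The called peaks lie apart, 1 of them 19.5 kb from Ogg1 and the others between 4.54 and 12.8 Mb away.

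Few members were called in any comparison, and none passed adjustment over all peaks of its table. Against WT, 8 of 252 were DERs in Ogg1-/- (3.17%, with 2.24% of all 22815 peaks), 8 in DKO (3.17%, all peaks 1.89%) and 6 in Mutyh-/- (2.38%, all peaks 1.95%). DKO against Mutyh-/-, which has the same difference in the Ogg1 allele as Ogg1-/- against WT but uses other libraries, gave 4 (1.59%, all peaks 1.76%). The 6 carriers against the 6 non-carriers gave 7 (2.78%, all peaks 1.81%), and the Mutyh allele gave 1 (0.397%, all peaks 1.74%). Over the 1512 tests of 252 members in 6 comparisons, limma gave 0 calls at an adjusted p under 0.05 (0.00365% of all tests were called so) and 34 at an unadjusted p under 0.05 (2.25%, all tests 1.9%), spread over 20 peaks. The smallest adjusted p of a member was 0.403 in limma.

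Under the alternatives tried, the only member with adjusted p-values under 0.05 was the Chl1 intron site, described below. edgeR on the recovered reads with the authors' scaling called it in 3 comparisons, DESeq2 in 1, and edgeR with TMM factors in 0. By table, the DERs for the Ogg1 allele were 3 of 160 H3K4me3 NeuN+ peaks (all peaks 0.831%), 1 of 36 H3K4me3 NeuN- (1.87%), 2 of 19 H3K27me3 NeuN+ (3.44%), 0 of 32 H3K27me3 NeuN- (3.24%), 0 of 3 Suz12 NeuN+ (2.32%) and 1 of 2 Suz12 NeuN- (10.3%). Of the 7, 5 were higher and 2 lower in carriers, and with TMM scaling, which moved the median of all peaks by -0.36 to 0.54 over the 36 pairs of table and comparison, 11 were called, 6 higher and 5 lower. For Ogg1-/- against WT the split was 6 higher and 2 lower, and 10 and 9 with TMM scaling. Higher and lower calls in the other comparisons were 8 and 0 for DKO and 6 and 0 for Mutyh-/- against WT (12 and 4, and 11 and 4, with TMM scaling), 3 and 1 for DKO against Mutyh-/- (7 and 5) and 1 and 0 for the Mutyh allele (7 and 2).

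Complete separation of the libraries by the Ogg1 allele was rare among all peaks and absent among members. In 0 of the 252 did all 6 carriers lie above or below all 6 non-carriers, while 18 of all 22815 peaks (0.0789%) did so. Counts of 0 in all carriers or in all non-carriers occurred in 0 members and in 10 of the 22563 other peaks. At shares this small, 0 of 252 does not set the flank apart from the other peaks.

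The 3 H3K4me3 peaks of NeuN+ nuclei called for the Ogg1 allele were all higher in carriers. The peak inside Foxj2, which encodes a forkhead transcription factor, lies 9.50 Mb after Ogg1 and had counts of 7.72, 0 and 3.23 in WT, 0, 15.6 and 3.50 in Mutyh-/-, 10.7, 11.3 and 12.3 in Ogg1-/- and 13.5, 17.7 and 25 in DKO. All 6 carriers lay above 5 of the 6 non-carriers, and the overlap came from Mutyh-/- replicate 2. The difference was 2.04 (SE 0.68, 95% interval 0.69 to 3.40), and it kept its call under all 22 alternatives. The stronger Foxj2 promoter peak (chr6:122820063-122820463) had counts of 18.5 to 56.1 and differed by 0.18 (95% interval -0.39 to 0.76).

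Usp18, which encodes the protease that removes the ubiquitin-like protein ISG15, had H3K4me3 counts of 15.4, 7.81 and 6.46 in WT, 6.54, 12.9 and 21.0 in Mutyh-/-, 17.9, 18.5 and 25.4 in Ogg1-/- and 31.6, 19.3 and 29.6 in DKO. Here too a single non-carrier, Mutyh-/- replicate 3, reached into the range of the carriers. Carriers were higher by 1.05 (SE 0.37, 95% interval 0.30 to 1.80), again under all 22 alternatives. Arl8b, a small GTPase of lysosome transport whose promoter lies 4.54 Mb before Ogg1, had 24.4, 17.6 and 30.2 in WT, 28.3, 28.5 and 42.9 in Mutyh-/-, 46.4, 39.0 and 63.1 in Ogg1-/- and 29.3, 49.9 and 45.5 in DKO. Its carriers were higher by 0.66 (SE 0.27, 95% interval 0.12 to 1.20), a call lost without DKO replicate 2 (0.59).

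The 2 called H3K27me3 peaks of NeuN+ nuclei moved in opposite directions. Near 1700049E22Rik, 12.8 Mb before Ogg1, the counts were 0, 2.21 and 0.862 in WT, 0, 6.64 and 17 in Mutyh-/-, 5.95, 17.8 and 16.4 in Ogg1-/- and 13.1, 5.82 and 20.9 in DKO. WT was below every carrier, and Mutyh-/- was spread over the whole range. Carriers were higher by 2.08 (SE 0.65, 95% interval 0.82 to 3.35, adjusted p = 0.997 in limma), a call kept under all 22 alternatives, with adjusted p = 0.421 the smallest. At the promoter of Cd9, which encodes a tetraspanin of the cell membrane, the counts were 3.29, 13.3 and 15.5 in WT, 8.11, 13.3 and 9.99 in Mutyh-/-, 5.95, 0 and 14.4 in Ogg1-/- and 2.19, 0 and 8.02 in DKO. The difference was -1.48 (SE 0.64, 95% interval -2.74 to -0.22), with overlapping ranges. The call was lost without WT replicate 2 (-1.35) or 3 (-1.30), Ogg1-/- replicate 2 (-0.92) or DKO replicate 2 (-1.08) and in edgeR with the authors' scaling (-1.09). The H3K4me3 peak at the same promoter differed by 0.08 (95% interval -0.69 to 0.85).

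**Figure D3:**
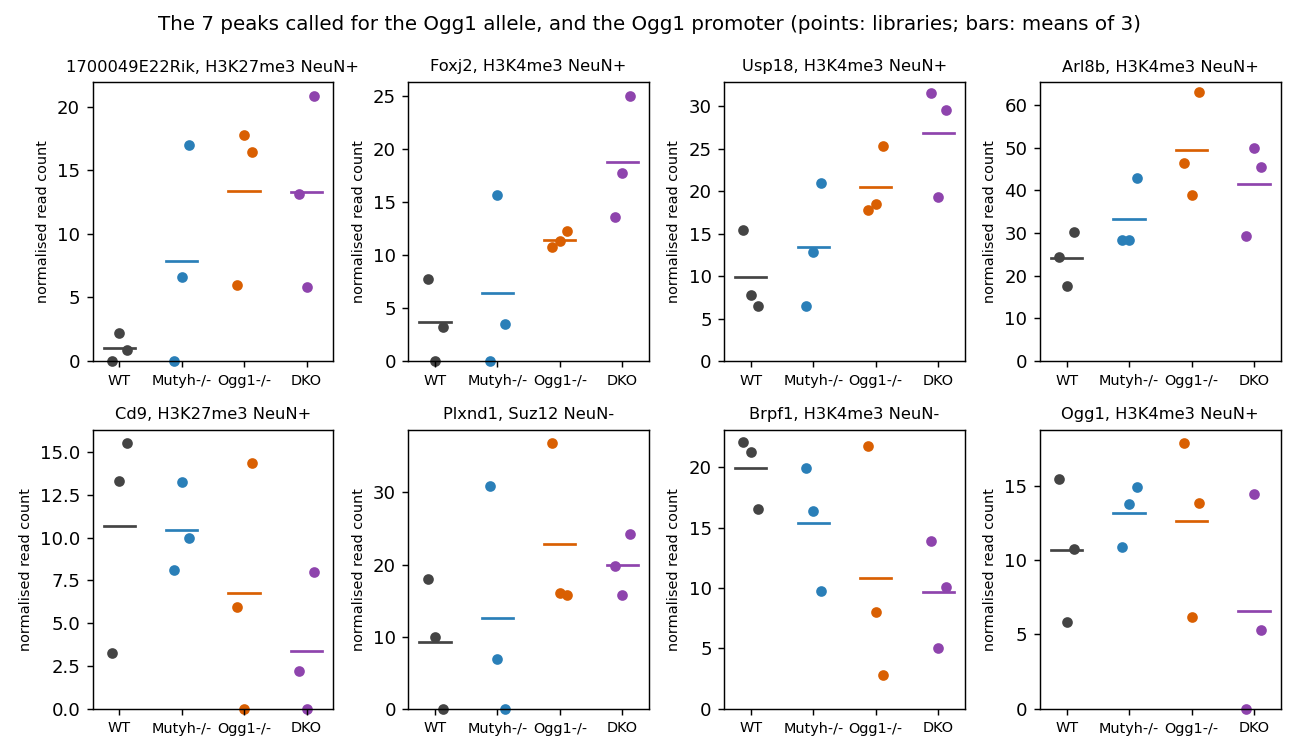
Normalised read counts (y axes) of the 7 peaks called for the Ogg1 allele and of the Ogg1 promoter peak, by genotype (x axes), with points for libraries and bars for the means of 3. At none of the 8 peaks do the 6 Ogg1-/- and DKO points stand apart from all 6 WT and Mutyh-/- points.

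The knockouts were also read through the comparisons that share no library. Of the 8 members called in Ogg1-/- against WT and the 4 called in DKO against Mutyh-/-, 0 were the same peak, and among the other 22563 peaks 10 were called in both, 5 of them in the same direction. The log2 fold changes of the 2 comparisons were correlated after the median of each table was subtracted. Pearson correlations were -0.07 over the 252 members and -0.01 over the other peaks, a description across peaks, which share libraries and scaling. The 7 peaks called for the Ogg1 allele were chosen for the mean of these 2 differences, so their values are a description. Foxj2 gave 1.90 (95% interval -0.02 to 3.82) and 2.19 (0.27 to 4.10), the latter not called without Mutyh-/- replicate 1 (1.15) or DKO replicate 2 (2.21) or 3 (1.97). Usp18 gave 1.05 (-0.01 to 2.12) and 1.04 (-0.02 to 2.11), and the H3K27me3 peak near 1700049E22Rik gave 2.86 (1.06 to 4.65) and 1.31 (-0.48 to 3.11). Arl8b gave 1.02 (0.26 to 1.77) and 0.31 (-0.45 to 1.06), and Brpf1 in NeuN- nuclei -1.17 (-2.37 to 0.02) and -0.66 (-1.86 to 0.54). The differences were -1.08 (-2.87 to 0.71) and -1.88 (-3.67 to -0.09) for H3K27me3 at Cd9 and 1.90 (-0.44 to 4.24) and 1.71 (-0.63 to 4.05) for Suz12 at Plxnd1. The Cd9 call in DKO against Mutyh-/- was lost without DKO replicate 2 (-1.07), without DKO replicate 1 or Mutyh-/- replicate 2 or 3 (-1.91 to -1.71), with a pseudocount of 5 (-0.98) and in edgeR with the authors' scaling (-1.53).

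**Figure D4:**
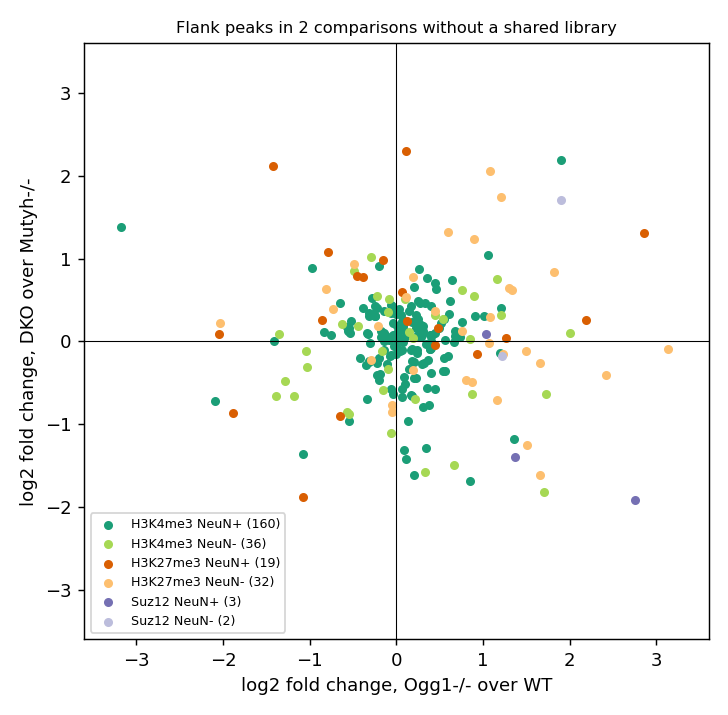
Log2 fold change of Ogg1-/- over WT (x axis) against that of DKO over Mutyh-/- (y axis), with 1 point per flank peak coloured by table and the number of peaks in brackets. The 252 points spread over all 4 quadrants. The Pearson correlation was -0.07 after the median of each table was subtracted, which was not done for the points drawn.

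Several further members were called in single comparisons, and Ift122, Tnfrsf1a, Slc6a13 and the H3K4me3 peak of Ret are named after their values were seen. Ift122, which encodes a subunit of the intraflagellar transport complex of cilia, had H3K4me3 counts of 19.3, 20.5 and 8.62 in WT and 4.76, 0 and 8.46 in Ogg1-/- NeuN+ nuclei, a difference of -2.09 (95% interval -4.09 to -0.09). The call was lost without Ogg1-/- replicate 2, the library at 0 (-1.13), without WT replicate 1 (-1.92) or 2 (-1.88) and with a pseudocount of 0.5 (-2.44). Ret, the receptor of glial cell line-derived neurotrophic factors, was higher in DKO than in WT for H3K4me3 in NeuN+ nuclei (95% interval 0.05 to 1.97) and for H3K27me3 in NeuN- nuclei by 2.23 (0.03 to 4.44). The latter rested on counts of 0, 0 and 2.31 in WT and 15.6, 3.70 and 3.41 in DKO, and its call was lost under 8 of 21 alternatives, as without WT replicate 1 or 2 (1.95 each), DKO replicate 1 (1.61) or Ogg1-/- replicate 3 (2.23). The H3K4me3 call was lost under 5 of 22, as without WT replicate 2 (0.71) or 3 (0.85) or DKO replicate 2 or 3 (0.99 each). Tnfrsf1a, the main receptor of tumour necrosis factor, had H3K27me3 counts of 6.57, 7.75 and 16.4 in WT and 2.97, 3.14 and 0 in Ogg1-/- NeuN+ nuclei, and the difference was -2.04 (95% interval -3.78 to -0.31), a call lost without WT replicate 3 (-1.68) or Ogg1-/- replicate 3 (-1.37). Slc6a13, which encodes a GABA transporter, had H3K27me3 counts of 0, 0 and 1.15 in WT and 2.88, 9.50 and 4.62 in Mutyh-/- NeuN- nuclei, a difference of 2.24 whose call was lost under 8 of 21 alternatives, as without WT replicate 1 or 2 (2.06 each), Mutyh-/- replicate 2 (1.86) or 3 (2.31) or DKO replicate 3 (2.24). DKO against Mutyh-/- gave, besides Foxj2 and Cd9, Foxp1 (H3K4me3 in NeuN+ nuclei, 0.87), which encodes a forkhead transcription factor, and an exon of Plekhg6 (H3K27me3 in NeuN+ nuclei, 95% interval 0.41 to 4.19). Foxp1 was lost under 9 of 22 alternatives, as without Mutyh-/- replicate 1 (0.54), or without Mutyh-/- replicate 2, WT replicate 3, Ogg1-/- replicate 1 or any 1 DKO library (0.82 to 0.94). Plekhg6 was lost without Mutyh-/- replicate 1 or 3 (1.85 each) and in edgeR (2.13, and 2.03 with TMM factors).

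In NeuN- nuclei the H3K27me3 members clustered. Of the 32, 16 lay in a run of 0.865 Mb (chr6:99693651-100558534) 12.8 to 13.6 Mb before Ogg1, over Prok2, which encodes a secreted signalling peptide, and Rybp, which encodes a subunit of Polycomb repressive complex 1. Their mean counts were 2.36 to 6.53, and 13 of the 16 were higher in carriers with a median of 0.46 and a range from -0.45 to 1.07. All H3K27me3 peaks of NeuN- nuclei had a median of 0.36 in the same comparison, which TMM scaling moved by -0.18, and 9 of the 16 lay above it. In each of the 6 comparisons 0 of the 16 were called. For the Ogg1 allele 3.24% of all H3K27me3 peaks of NeuN- nuclei were, so 0 of 16 does not set the run apart. Neighbouring peaks of the run share a domain, so they are not 16 separate observations.

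Other H3K27me3 members of NeuN- nuclei lay at Rasgef1a, which encodes a Ras guanine nucleotide exchange factor, 4.68 Mb after Ogg1. The promoter peak had 0, 2.49 and 0 in WT, 22.1, 4.22 and 4.62 in Mutyh-/-, 14.9, 7.35 and 16.7 in Ogg1-/- and 20.8, 1.85 and 7.95 in DKO. WT was the lowest group, and the carriers fell within the range of Mutyh-/- but for 1 DKO library. It was called against WT in all 3 knockouts, by 3.13 in Ogg1-/- (95% interval 0.87 to 5.40), 2.53 in Mutyh-/- and 2.44 in DKO, comparisons that share the 3 WT libraries. DKO differed from Mutyh-/- by -0.10 (95% interval -2.36 to 2.17). The Ogg1-/- call was kept under all 22 alternatives, while that of Mutyh-/- was lost without WT replicate 1 or 3 (2.23 each) or Mutyh-/- replicate 1 (1.84), that of DKO without WT replicate 1 or 3 (2.14 each) or DKO replicate 1 (1.74) or 3 (2.38), and both with a pseudocount of 5 (1.23 and 1.20). The H3K27me3 member nearest to Ogg1, at the promoter of the oxytocin receptor gene Oxtr 0.838 Mb before it, had 3.97, 3.32 and 2.31 in WT, 14.4, 2.11 and 4.62 in Mutyh-/-, 19.3, 8.99 and 14.3 in Ogg1-/- and 8.67, 8.32 and 15.9 in DKO. Its difference of 1.32 was not called (95% interval -0.16 to 2.80), with 5 of 6 non-carriers below all carriers. A second Rasgef1a peak (chr6:117996911-117997311) was called against WT in Mutyh-/- (2.44, 95% interval 0.14 to 4.73) and Ogg1-/- (2.42, 0.13 to 4.71). These calls were lost under 4 and 9 of 22 alternatives. Both Rasgef1a peaks count among the calls at 1 to 5 Mb.

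The repeat-containing site in an intron of Chl1, which encodes a cell adhesion molecule of the L1 family, was a peak in all 6 tables and held the most reads of the flank. Over the 72 libraries its counts ran from 0 to 396, and 19 libraries were listed at 0. High and zero libraries occurred within the same genotype: H3K27me3 in NeuN+ nuclei had 158, 31 and 65.5 in WT, 351, 0 and 0 in Mutyh-/-, 273, 62.7 and 0 in Ogg1-/- and 236, 0 and 122 in DKO. Replicate 1 was the highest library of each genotype there, and with H3K27me3 in NeuN- nuclei it was at 0 in each. For H3K4me3 in NeuN+ nuclei the highest library was not always replicate 1. H3K4me3 in NeuN+ nuclei had 5.15, 119 and 0 in WT, 109, 0 and 0 in Mutyh-/-, 0 in all 3 Ogg1-/- libraries and 18, 0 and 100 in DKO. No fold is given for a group listed at 0.

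In limma, carriers differed from non-carriers at the Chl1 site by -0.90 for H3K4me3 in NeuN+ nuclei (95% interval -4.63 to 2.83) and by 0.35 for H3K27me3 (-4.87 to 5.57). edgeR with the authors' scaling gave adjusted p-values of 4.73e-09 for Ogg1-/- against WT, 2.21e-05 for the Ogg1 allele and 6.37e-05 for the Mutyh allele at this site in H3K4me3 NeuN+ nuclei, and DESeq2 gave 0.000162 for the first, where 2 of the 3 WT libraries were above 0. Without robust moderation limma gave an adjusted p = 7.97e-05 for H3K27me3 of NeuN+ nuclei in Mutyh-/- against WT. In the Suz12 NeuN- table the difference was 0.52 in limma (95% interval -3.05 to 4.08). Leaving out DKO replicate 1, which was at 0 there while the other 5 carriers had 238 to 374 and the non-carriers 10.1 to 211, gave 1.91 (adjusted p = 0.0434), and for Suz12 in NeuN+ nuclei Mutyh-/- exceeded WT by 4.78 without WT replicate 2 (adjusted p = 0.0276).

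A second site, in the 3' UTR of Plxnd1 (the receptor plexin D1 for semaphorins, 2.70 Mb after Ogg1), was a peak in 5 tables with counts of 0 to 36.8. For Suz12 in NeuN- nuclei it had 17.9, 9.95 and 0 in WT, 30.8, 6.85 and 0 in Mutyh-/-, 36.8, 16.1 and 15.7 in Ogg1-/- and 19.8, 15.7 and 24.2 in DKO, and carriers were higher by 1.81 (SE 0.84, 95% interval 0.15 to 3.46, adjusted p = 0.403 in limma). The call was lost under TMM scaling (1.59), in edgeR (0.97 with the authors' scaling) and DESeq2 (0.83) and with a pseudocount of 5 (1.04), and without WT replicate 3 (1.16), Mutyh-/- replicate 3 (1.14), Ogg1-/- replicate 1 (1.61) or DKO replicate 3 (1.73). In the other 4 tables the same contrast gave 0.96 for H3K4me3 in NeuN- nuclei, 0.09 for H3K4me3 and 1.22 for H3K27me3 in NeuN+ nuclei and -0.02 for Suz12 in NeuN+ nuclei, none of them called. At this site H3K27me3 in NeuN+ nuclei was also higher than in WT in all 3 knockouts, by 2.18 in Ogg1-/-, 2.14 in DKO and 1.89 in Mutyh-/-, with WT at 0, 0 and 10.3. Without either WT library at 0 these fell to 1.60, 1.56 and 1.30 and were no longer called, and they were also lost in edgeR and DESeq2. The Mutyh-/- call was lost as well without Mutyh-/- replicate 1 (1.56) or 2 (1.85), that of Ogg1-/- without its replicate 2 (1.98) and that of DKO without its replicate 2 (1.82) or 3 (1.86).

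**Figure D5:**
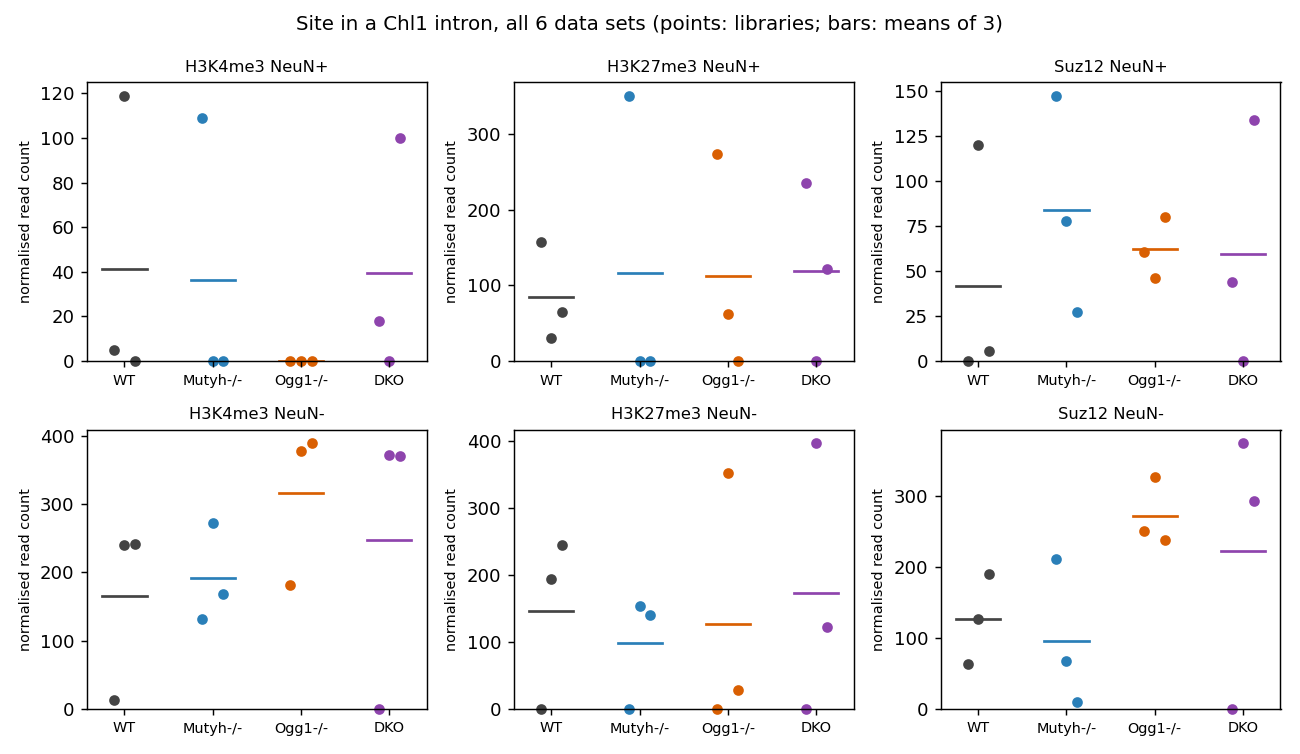
Normalised read counts (y axes, different scales) at the site in a Chl1 intron in the 6 tables, by genotype (x axes), with points for libraries and bars for the means of 3. Libraries at 0 and above 100 occur in the same genotype.

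As a share of all reads in peaks, which does not depend on scaling between libraries, the flank took 1.23% to 1.29% in all 12 H3K4me3 NeuN+ libraries. Carriers had 1.27% ± 0.0208 (SD, n = 6) and non-carriers 1.26% ± 0.0220 (SD, n = 6). For H3K4me3 in NeuN- nuclei the shares were 0.693% ± 0.0280 and 0.701% ± 0.0359 (SD, n = 6 each). The other 4 tables varied more, from 0.405% to 1.26% for H3K27me3 in NeuN+ nuclei, from 0.314% to 1.10% in NeuN- nuclei, and from 0.0307% to 1.16% (NeuN+) and 0.0589% to 0.868% (NeuN-) with Suz12. In the highest library the Chl1 site held 80.8% of the flank's H3K27me3 reads in NeuN+ nuclei, 87.7% in NeuN- nuclei and 100% of the Suz12 reads in either fraction. Carriers and non-carriers overlapped in each of the 6 tables.

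Genes of the flank were also grouped by function. Lists chosen for this chromosome stretch held 35 neighbours of Ogg1 (37 peaks of 27 genes), 27 genes of neuronal adhesion, synapse and channels (44 peaks of 22 genes), 26 housekeeping genes (29 peaks of 23), 17 DNA repair and chromatin genes (16 peaks of 10) and 19 developmental regulators and ligands (19 peaks of 13). For the Ogg1 allele the calls were 1 of 37 lower (Brpf1 in NeuN- nuclei), 1 of 44 higher (Plxnd1, Suz12 in NeuN- nuclei) and 1 of 29 higher (Arl8b). Of the 16 DNA repair and chromatin peaks, 1 was higher and 1 lower (Foxj2 and Brpf1, the latter also a neighbour of Ogg1), and 0 of the 19 developmental ones were called. Over all peaks 1.81% were called, and counts this small do not set a list apart from that share. Median log2 fold changes were 0.03, 0.17, -0.06, -0.02 and -0.01, beside 0.07 over the peaks of other chromosomes.

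In each gene list, the H3K4me3 peaks with the highest WT means in NeuN+ nuclei were not called for the Ogg1 allele in limma, and the Chl1 site, which is among them, was called in edgeR as given above. Atp2b2, a plasma membrane calcium pump, had 33.4, 25.4 and 47.4 in WT and 20.3, 40.2 and 43.2 in DKO at the stronger of its promoters, 0.715 Mb from Ogg1, and gave 0.17 (95% interval -0.38 to 0.71) for the Ogg1 allele. Syn2, which encodes a synaptic vesicle protein, gave -0.03, Kdm5a, an H3K4 demethylase, 0.03, Ccnd2, a cyclin of the G1 phase, 0.22, and Mlf2 -0.19. The promoter of Edem1, which encodes a protein of endoplasmic reticulum quality control, gave -0.34 (95% interval -0.92 to 0.24).

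The precision behind these statements differed by table. Standard errors of the Ogg1 allele contrast had a median of 0.33 for the H3K4me3 members of NeuN+ nuclei, 0.66 for H3K4me3 in NeuN- nuclei, 0.67 (NeuN+) and 0.80 (NeuN-) with H3K27me3 and 0.88 (NeuN+) and 1.20 (NeuN-) with Suz12. The 95% interval lay within a 2-fold change either way for 107 of 160 H3K4me3 NeuN+ members and 1 of 36 NeuN- members, and for 0 of the 56 others. Within a 4-fold change it lay for 208 of all 252. At each H3K27me3 and Suz12 member the interval thus reached past a 2-fold change in at least 1 direction.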

How the data were processed

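ChIP-seq of H3K4me3, H3K27me3 and Suz12 in NeuN+ and NeuN- nuclei gave 72 libraries in 6 tables, and the 24 input libraries were not analysed here. Per the methods and labels, the authors aligned single-end reads to mm10 with Bowtie2 (2.3.5.1 per the submitters' processing notes), called peaks with epic2, counted reads over consensus peaks with DiffBind 3.10.1 and annotated peaks with ChIPseeker. The deposited values are a signal, read counts divided by a factor per library; how input was treated and which factors were used is not given in the sources used here. Of the columns of per-sample values, 0 stayed unmapped. Whole reads were recovered from the steps of the values (100% of values whole within 0.001 of a read in every library). On them edgeR with the authors' scaling called 35 tests at an adjusted p under 0.05 over all peaks, 3 of them in members. With TMM factors edgeR called 8 over all peaks and 0 in members.

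Each table was fitted over all its peaks with limma 3.58.1 (trend and robust empirical Bayes, log2 of value + 1, genotype as the only term, 12 libraries), with two-sided p-values adjusted by Benjamini-Hochberg over the table and genotype contrasts. Alternatives used edgeR 4.0.16, DESeq2 1.42.0, TMM factors, pseudocounts of 0.5 and 5, filters (mean value under 5; at least 50% repeat sequence) and left out each library. Members, gene lists and the rule for naming peaks (those within 0.5 Mb of Ogg1, those with the smallest p-values per table, the strongest WT peaks of each list) all were chosen with earlier results of these data known. A replicate is a sort of pooled animals. Of 24 pairs of groups, same-numbered replicates deviated together (every correlation over 0.1) in 1, Suz12 of NeuN+ nuclei in WT and Mutyh-/-, where the block left the call at Plxnd1 as it was (2.53). This rule is strict. All correlations of Suz12 in NeuN+ nuclei were positive (0.0396 to 0.388), and those of replicate 1 for H3K27me3 in NeuN- nuclei ran from 0.0772 to 0.292. H3K4me3 in NeuN+ nuclei gave -0.101 to 0.0833.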

Additional observations from a re-analysis of the deposited data

How the results depend on the processing

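Counts of called flank peaks moved by more than 1.5 times with the scaling and the tool. With TMM factors limma called 15 peaks in Mutyh-/- and 19 in Ogg1-/- against WT, 16 in DKO against WT, 12 in DKO against Mutyh-/-, 11 for the Ogg1 allele and 9 for the Mutyh allele; all peaks were then called at 4.19%, 4.25%, 4.80%, 4.34%, 3.59% and 3.35%. In the same order of comparisons edgeR with TMM factors gave 11, 17, 14 and 7, and 7 for the Mutyh allele. All peaks were then called at 3.79%, 3.80%, 3.52%, 3.11% and 2.84%. DESeq2 gave 11, 15 (DKO against WT stayed within 1.5 times), 8, 13 and 6, with all peaks called at 3.76%, 3.77%, 3.25%, 3.48% and 3.32%. edgeR with the authors' scaling gave 3 for Mutyh-/- (all peaks 1.80%) and 4 for DKO (1.39%) against WT and 4 for the Mutyh allele (1.51%). Without robust moderation DKO against Mutyh-/- gave 7 (all peaks 1.88%) and the Mutyh allele 4 (1.78%). A pseudocount of 5 gave 3 for Mutyh-/- against WT (2.03%) and 2 for the Mutyh allele (1.97%), and one of 0.5 gave 2 for the latter (1.65%). With the replicate number as a block there were 14 calls in Ogg1-/- against WT (5.56%, all peaks 3.69%). The Ogg1 allele then gave 14 (5.56%, all peaks 2.97%) and the Mutyh allele 4 (1.59%, all peaks 2.68%). Whether the number marks a shared batch was not tested, and the check of correlations above does not settle it. With H3K27me3 in NeuN- nuclei the 4 libraries at 0 at the Chl1 site were replicate 1 of each genotype. For the same antibody and nuclei, median reads per peak were 3 to 8 in replicate 1 and 1 to 2 in replicate 2. Under each of these scalings and the block, and in the main fit, 3 comparisons always had a higher share called than over all peaks. Others did so in some fits only, as Mutyh-/- against WT in the main fit (2.38% against 1.95%). With TMM factors every comparison did. The 3 were Ogg1-/- against WT, DKO against WT and the Ogg1 allele, which share libraries. In DESeq2 they gave 5.95% against 3.77%, 4.37% against 3.35% and 5.16% against 3.48%. With TMM factors they gave 7.54% against 4.25%, 6.35% against 4.80% and 4.37% against 3.59%. DKO against Mutyh-/- gave 3.17% against 3.25% in DESeq2 and 4.76% against 4.34% with TMM factors. Mutyh-/- against WT gave 4.37% against 3.76% in DESeq2, 5.95% against 4.19% with TMM factors and 3.17% against 3.34% with the block. The Mutyh allele gave 2.38% against 3.32% in DESeq2 and 3.57% against 3.35% with TMM factors.

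Leaving out 1 library gave 3 to 8 calls in Mutyh-/- against WT (1.19% to 3.17%, all peaks 1.59% to 3.37%). Ogg1-/- against WT had 8 to 14 (3.17% to 5.56%, all peaks 1.83% to 4.19%) and DKO against WT 6 to 12 (2.38% to 4.76%, all peaks 1.69% to 3.31%). In DKO against Mutyh-/- there were 3 to 9 (1.19% to 3.57%, all peaks 1.59% to 3.48%). The Ogg1 allele gave 7 to 15 (2.78% to 5.95%, all peaks 1.66% to 3.34%) and the Mutyh allele 2 to 8 (0.794% to 3.17%, all peaks 1.43% to 2.70%). Counts moved by over 1.5 times without Mutyh-/- replicate 2 in Mutyh-/- against WT (3), WT replicate 1 in Ogg1-/- against WT (14), and DKO replicate 2 (7) or 3 (9) in DKO against Mutyh-/-. For the Ogg1 allele they did without WT replicate 3 (12), Mutyh-/- replicate 1 (13), Ogg1-/- replicate 2 (15) or DKO replicate 1 (11), and for the Mutyh allele, with 1 call, without any library. Of 746 values of single peaks under the alternatives, 596 kept direction and call, 150 kept direction only and 0 reversed. Apart from the Ogg1 promoter, which stayed uncalled, these peaks were chosen for their calls in the same libraries. The alternatives reuse most of those libraries, so a kept direction is no separate support. The median shift of the flank stayed within the replicate spread in each table under the 3 alternatives tried for it. When repeat peaks were left out, the difference in the share of reads moved by more than the replicate spread in 2 tables, for H3K4me3 in NeuN- nuclei from -0.00822 to 0.233 percentage points and for Suz12 in NeuN- nuclei from 0.0798 to 1.00, since the total of reads then fell. Within that spread it went from 0.0753 to -0.0499 for Suz12 in NeuN+ nuclei, from 0.0143 to 0.00164 for H3K4me3 in NeuN+ nuclei, and with H3K27me3 from 0.144 to 0.0801 (NeuN+) and from 0.0730 to 0.0215 (NeuN-). Without the Chl1 site, an alternative chosen after seeing the data, it was -0.0794 for H3K4me3 in NeuN- nuclei and 0.00733 to 0.150 in the other 5 tables. Input treatment by the authors, the few reads per peak outside H3K4me3 in NeuN+ nuclei, and 3 pooled sorts per genotype limit what could be detected.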
